A study of Mus musculus with 4 samples.

Results

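The 9 genes described here encode Sprouty proteins (Spry1, Spry2, Spry4), Spred proteins (Spred1, Spred2), the membrane protein Sef (Il17rd) and ETS-family transcription factors (Etv1, Etv4, Etv5). They were taken by symbol from a deposited feature list of 31053 genes, and each of the 9 symbols was found. Kidneys of C57BL/6J mice, male and female, 10 weeks old, were studied after a single intraperitoneal dose of recombinant human FGF23 (10 µg per mouse), with kidneys taken 1, 4 or 12 h later. The baseline group is labelled 0 h with a dose of 0 µg. Its matrix was deposited under a name that gives saline at 1 h instead, which leaves unsettled whether the mice received an injection. Male and female kidneys were digested together for each library, dead cells were removed, and 10x Genomics 3' libraries with unique molecular identifiers (UMIs) were made. There were 4 libraries, 1 per group, so time, library and animals cannot be told apart, and no difference between libraries has a replicate check or a p-value.

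FGF23 is a bone-derived hormone that lowers phosphate reabsorption and vitamin D activation in the kidney, acting through FGF receptors together with the co-receptor Klotho. Receptor activation is passed through RAS, RAF and MEK to the kinase ERK. Sprouty and Spred proteins are induced in many tissues by that pathway and restrain it at the level of RAS and RAF, and Sef acts on the receptor and on ERK itself. Etv1, Etv4 and Etv5 form the PEA3 group of ETS factors, whose genes are held down by the repressor capicua until ERK relieves it.

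The libraries held 9303, 8758, 10131 and 9498 cells at 0, 1, 4 and 12 h after filtering, with a median of 8743.5 to 11178 UMIs per cell. Pairs of libraries shared 36 to 57 barcode sequences. Cells were grouped by marker genes into proximal tubule (PT-like, 6214 to 7248 cells per library), thick ascending limb (TAL-like, 371 to 447), distal convoluted tubule (DCT-like, 331 to 428), connecting tubule (CNT-like, 121 to 236), endothelium (308 to 661) and smaller classes. Within the proximal tubule, 1929 to 2438 cells per library had the markers of the early segment (PT-S1-like) and 159 to 338 those of the last segment (PT-S3-like). A further 461 to 603 were named for the middle segment (PT-S2-like), and the others, called PT-other, could be given no segment. The middle-segment name is weak, since PT-S2 markers summed at 0 h to 1392 CPM in PT-S2-like and 1356 CPM in PT-other cells. PT-S2-like cells that could be given a sex from sex-linked genes were nearly all male. UMIs of a class were summed per library and expressed as CPM, the UMIs of a gene scaled to a fixed total for that class and library. Ratios to 0 h are log2 ratios of CPM with exact 95% intervals, given in brackets and only for genes with at least 20 UMIs over both libraries. The intervals carry counting error alone and say nothing of how animals or preparations vary. The counts are not scaled by transcript length, so levels are compared between classes and times for 1 gene, never between genes.

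At 0 h the endothelium held the highest CPM of Spry1, Spry4, Spred1 and Spred2 among the classes shown in the plot of levels by time. Spry1 stood at 141 CPM in endothelial cells and at 49.2 in principal cells, against 14.5 in TAL-like, 5.37 in CNT-like, 2.25 in DCT-like and 1.12 in PT-like cells. The CNT-like and DCT-like values rest on 8 UMIs each. The order for Spry2 was principal cells (41.7 CPM), endothelium (29.5) and TAL-like cells (22.6), neighbours whose counting intervals overlap, then DCT-like (10.7) and CNT-like cells (9.4), and PT-like cells at 3.33. Spry4 stood at 57.8 CPM in endothelial and 2.53 in PT-like cells. Etv1 and Etv5 had their highest class level in the early proximal tubule. Etv1 stood at 91.2 CPM in PT-S1-like cells against 13.5 in PT-S2-like and 3.37 in DCT-like cells, and Etv5 at 15.5 CPM in PT-S1-like and 10.1 in DCT-like cells. Il17rd stood at 30 CPM in DCT-like cells and at 10.6 in PT-S1-like cells. Etv4 was rare at 0 h in each class given values here, with 9 UMIs in DCT-like, 6 in CNT-like and 3 in PT-like cells.

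**Figure D1:**
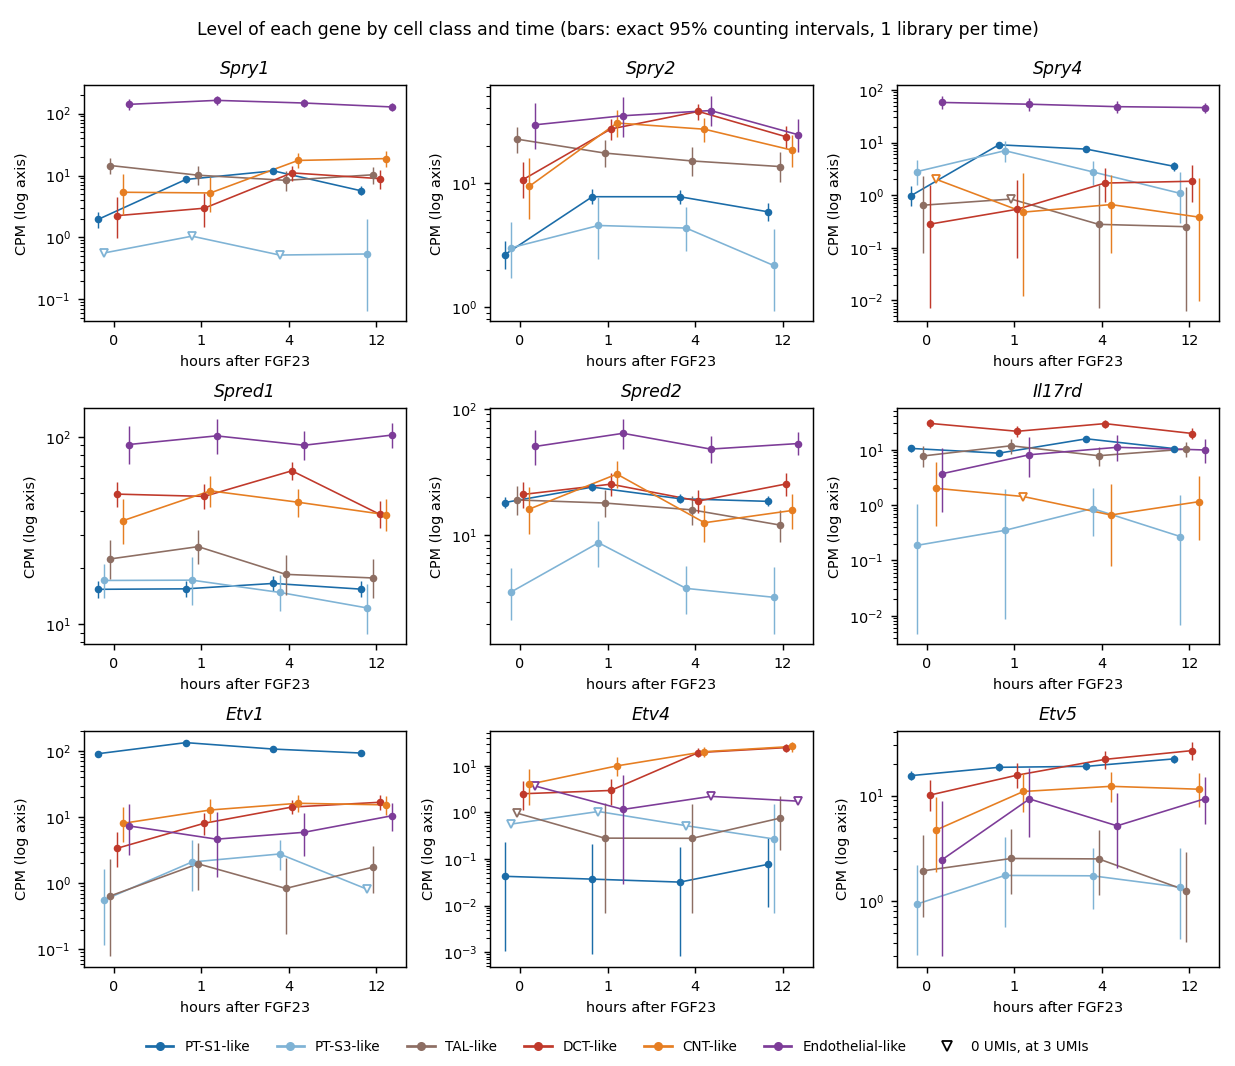
Level of each of the 9 genes in CPM (log axis) against hours after FGF23, 1 library per time, for 6 cell classes. Points are class sums, bars are exact 95% Poisson intervals, and open triangles mark classes with 0 UMIs, drawn at the level of 3 UMIs; Spry1, Spry2 and Spry4 in PT-S1-like cells and Etv4 in DCT-like and CNT-like cells lie above their 0 h points.

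The Sprouty genes, which encode inhibitors of receptor-driven RAS-ERK signalling, were higher in the early proximal tubule in each of the 3 libraries after FGF23 than at 0 h. Spry4 in PT-S1-like cells stood at 0.981 CPM at 0 h (23 UMIs), 9.06 at 1 h (244 UMIs), 7.5 at 4 h (234 UMIs) and 3.53 at 12 h (92 UMIs). The ratio to 0 h was 9.23-fold at 1 h (log2 3.21 [2.59, 3.89]), 7.64-fold at 4 h (2.93 [2.31, 3.62]) and 3.60-fold at 12 h (1.85 [1.18, 2.57]). The 0 h library was the lowest and the 12 h library lay below those at 1 and 4 h, with a log2 ratio from 4 to 12 h of -1.09 [-1.45, -0.73].

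Spry1 in PT-S1-like cells stood at 1.96, 8.65, 11.9 and 5.68 CPM at 0, 1, 4 and 12 h. Its log2 ratios to 0 h were 2.14 [1.68, 2.63], 2.60 [2.16, 3.08] and 1.53 [1.05, 2.04], so the 4 h library was the highest. Spry2 in the same cells stood at 2.64, 7.76, 7.75 and 5.87 CPM, with log2 ratios of 1.55 [1.14, 1.99], 1.55 [1.14, 1.98] and 1.15 [0.72, 1.60]. For each of the 3 Sprouty genes in PT-S1-like cells, the interval of each ratio to 0 h lay above 0.

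Over the whole proximal tubule the same 3 genes were higher at 1 and 4 h, and by less at 12 h for Spry2 and Spry4. Spry1 stood at 1.12, 4.54, 7.27 and 3.89 CPM in PT-like cells, with log2 ratios of 2.02 [1.70, 2.36], 2.70 [2.40, 3.02] and 1.80 [1.47, 2.14]. Spry2 stood at 3.33, 7.63, 7.21 and 5.09 CPM, 2.29-fold, 2.17-fold and 1.53-fold the 0 h level. Spry4 stood at 2.53, 7.47, 7.87 and 3.25 CPM, 2.96-fold and 3.11-fold the 0 h level at 1 and 4 h. At 12 h Spry4 was 1.29-fold the 0 h level (log2 0.36 [0.10, 0.63]), closer to baseline than in PT-S1-like cells.

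The last proximal segment gave other values. Spry2 stood at 3, 4.55, 4.34 and 2.16 CPM in PT-S3-like cells, with log2 ratios of 0.60, 0.53 and -0.47 whose intervals all include 0. Spry1 had 0, 0, 0 and 2 UMIs in PT-S3-like cells at 0, 1, 4 and 12 h, too few for a ratio. Spry4 stood at 2.81, 7, 2.78 and 1.08 CPM there, with a log2 ratio of 1.31 [0.27, 2.38] at 1 h and -0.02 [-1.13, 1.10] at 4 h. In PT-other cells Spry4 stood at 3.36, 7.08, 8.94 and 3.38 CPM, so at 12 h it was level with 0 h (log2 0.01). The difference between segments was not tested, since each rests on 1 library per time. Summed PT-S3 markers were lower at each later time in PT-like cells, at 1013, 822, 635 and 467 CPM over 6 markers, and neutrophil markers stood at 120, 81.9, 295 and 142 CPM; their part in the ratios was not tested. Endothelial markers, from the class with the highest Sprouty levels, summed over 8 genes to 3.24, 2.90, 3.36 and 4.03 CPM in PT-S1-like cells.

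In the distal nephron the Sprouty genes differed from one another. Spry2 in DCT-like cells stood at 10.7, 27.3, 37.8 and 23.6 CPM, with log2 ratios of 1.35 [0.80, 1.93], 1.82 [1.31, 2.37] and 1.15 [0.58, 1.73]. In CNT-like cells it stood at 9.4, 30.5, 27.2 and 18.4 CPM, with log2 ratios of 1.70 [0.85, 2.65], 1.53 [0.70, 2.46] and 0.97 [0.09, 1.94]. Spry2 was thus above its 0 h level in both distal classes at each time, by more than counting error.

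Spry1 in the distal classes was higher at 4 and 12 h and near its 0 h level at 1 h. In DCT-like cells it had 8, 11, 52 and 34 UMIs (2.25, 2.97, 11 and 8.92 CPM), and the log2 ratio to 0 h was 2.30 [1.21, 3.58] at 4 h and 1.99 [0.85, 3.31] at 12 h. With a mitochondrial limit of 25% the DCT-like ratio was 0.83 at 4 h, and with cells weighted equally it was 0.86 at 12 h. CNT-like cells held 5.37, 5.24, 17.6 and 18.8 CPM of it, with log2 ratios of 1.71 [0.63, 2.99] at 4 h and 1.81 [0.72, 3.1] at 12 h. With so few UMIs at 1 h, a difference from 0 h in either class could not be judged. In PT-S1-like cells Spry1 was 4.41-fold the 0 h level at 1 h. Spry4 was too rare for a ratio in these classes, with 1, 2, 8 and 7 UMIs in DCT-like and 0, 1, 2 and 1 in CNT-like cells.

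The TAL-like and endothelial cells did not show the proximal pattern. In TAL-like cells Spry2 stood at 22.6, 17.4, 15.1 and 13.6 CPM, with the log2 ratio at 12 h at -0.73 [-1.27, -0.20]. Spry1 there stood at 14.5, 10.1, 8.37 and 10.3 CPM, with a log2 ratio of -0.80 [-1.51, -0.10] at 4 h. In endothelial cells Spry1 stood at 141, 164, 148 and 128 CPM and Spry4 at 57.8, 53.5, 48 and 46.1 CPM, each within a factor of 2 of the 0 h level.

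**Figure D2:**
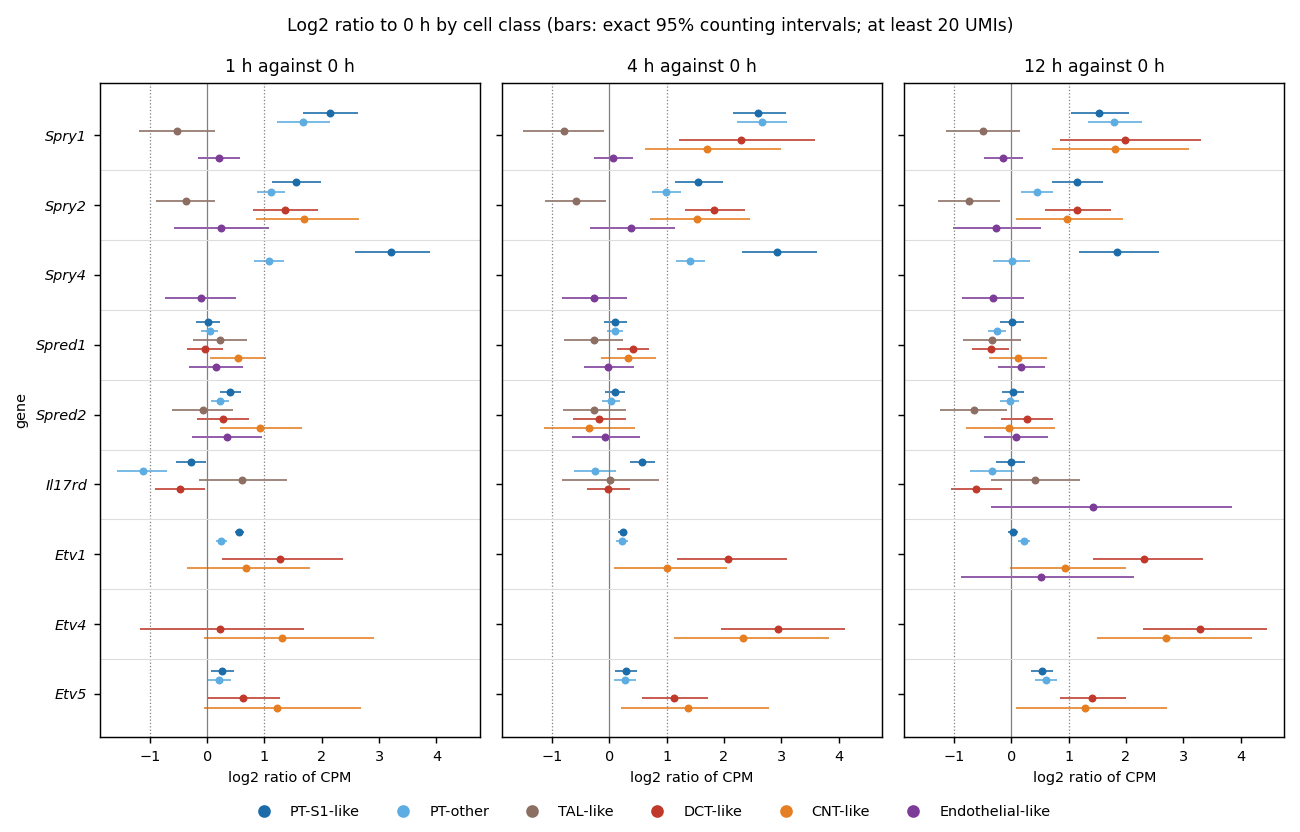
Log2 ratio of CPM to the 0 h library for each of the 9 genes at 1, 4 and 12 h (1 panel per time), in 6 cell classes, with exact 95% intervals for counting error as bars. Dotted lines mark a 2-fold difference; genes with fewer than 20 UMIs over both libraries are not drawn, and Etv4 in DCT-like cells at 12 h reaches a log2 ratio of 3.29.

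Spry1 and Spry2, the Sprouty genes with values in both proximal and distal classes, have a promoter window in the RefSeq table used here (GRCm38.p6). Each window runs from 250 bases before the gene's start, and those 250 bases are printed 5′ to 3′ on the gene's strand because both genes were higher in proximal and distal cells. Spry1 lies on chromosome 3 at 37639947 to 37644598 (plus strand) and Spry2 on chromosome 14 at 105891947 to 105896819 (minus strand) in GENCODE vM21, and the printed bases lie outside or at the edge of each gene, at chr3:37639697-37639946 and chr14:105896820-105897069. Capitals would mark a match to a searched motif, and neither sequence holds one.
Spry1: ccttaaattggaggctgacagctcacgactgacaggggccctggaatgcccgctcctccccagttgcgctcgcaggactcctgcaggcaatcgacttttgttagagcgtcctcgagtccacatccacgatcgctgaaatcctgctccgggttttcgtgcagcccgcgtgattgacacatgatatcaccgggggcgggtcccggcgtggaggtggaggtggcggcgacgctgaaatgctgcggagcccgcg
Spry2: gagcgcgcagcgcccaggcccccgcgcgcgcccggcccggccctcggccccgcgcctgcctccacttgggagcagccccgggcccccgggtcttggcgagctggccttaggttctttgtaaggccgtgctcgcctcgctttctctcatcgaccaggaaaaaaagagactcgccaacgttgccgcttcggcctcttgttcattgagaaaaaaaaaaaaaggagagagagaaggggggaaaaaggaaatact
The motifs searched on both strands of the 300-base windows were CGGAAG (ETS core), TGAATGA and TGAATGG (capicua), TGANTCA (AP-1), TGACGT (CRE) and the CArG box of SRF. Over 32851 windows of 27025 genes in the table, 16.9% held CGGAAG, 3.75% TGAATGA, 3.59% TGAATGG, 7.81% TGANTCA, 7.51% TGACGT and 1.63% a CArG box. No match says only that these letters are not in this window.

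The Spred genes, which encode membrane-bound inhibitors of RAF activation, changed little. Spred1 in PT-like cells stood at 14.4, 14.8, 15.6 and 13.1 CPM, with log2 ratios of 0.04, 0.11 and -0.14. Spred2 in PT-like cells stood at 13, 16.8, 14 and 13.4 CPM, with a log2 ratio of 0.37 [0.26, 0.48] at 1 h and of 0.11 and 0.05 later. In PT-S1-like cells the 1 h value of Spred2 was likewise higher, at 24.1 CPM against 18.2 (log2 0.40 [0.23, 0.58]).

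In other classes Spred2 at 1 h was further from 0 h. In PT-S3-like cells it stood at 3.57, 8.75, 3.82 and 3.25 CPM, with a log2 ratio of 1.29 [0.38, 2.24] at 1 h. Its CNT-like level was 16.1, 30.5, 12.6 and 15.7 CPM, with log2 0.92 [0.22, 1.66] at 1 h and -1.28 [-1.89, -0.67] from 1 to 4 h. Intercalated cells gave the opposite, at 12.9, 4.94, 7.67 and 3.36 CPM. Spred1 in DCT-like cells stood at 49.4, 48, 65.8 and 38.6 CPM, above 0 h at 4 h (0.41 [0.14, 0.69]) and below it at 12 h (-0.36 [-0.68, -0.03]). Its CNT-like level was 35.6, 51.4, 44.7 and 38.4 CPM.

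Spred1 lies on chromosome 2 at 117121374 to 117182279 (plus strand). The 250 bases before its RefSeq start (chr2:117120821-117121070) are shown as the member window with a match to the ETS core and ratios near 0. The match begins 17 bases before the start and is in capitals. A further match, on the other strand, begins 8 bases after the start and is not printed.
Spred1: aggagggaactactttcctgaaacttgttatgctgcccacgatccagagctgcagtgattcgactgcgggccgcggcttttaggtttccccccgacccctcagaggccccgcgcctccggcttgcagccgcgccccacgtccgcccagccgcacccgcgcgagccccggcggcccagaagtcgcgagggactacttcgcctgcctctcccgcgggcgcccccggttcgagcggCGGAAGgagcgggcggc
With Spred2, 2 of the 9 windows of 7 members with an entry held CGGAAG, and Spred2 alone held TGACGT.

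Il17rd encodes Sef, a transmembrane inhibitor of FGF signalling, and its level in PT-S1-like cells was lower at 1 h and higher at 4 h. It stood at 10.6, 8.69, 15.8 and 10.5 CPM, with log2 ratios of -0.28 [-0.55, -0.02], 0.58 [0.35, 0.80] and -0.01. In PT-like cells it stood at 4.49, 3.38, 6.41 and 4.63 CPM, and the log2 ratio from 1 to 4 h was 0.92 [0.72, 1.13]. PT-other cells, at 2.69, 1.23, 2.26 and 2.13 CPM, had a 1 h log2 ratio of -1.13 [-1.57, -0.70]. DCT-like cells stood at 30, 21.6, 29.7 and 19.7 CPM, with log2 ratios of -0.48 [-0.91, -0.05], -0.02 and -0.61 [-1.06, -0.17]. The DCT-like ratio at 1 h turned to 0.12 with a mitochondrial limit of 25% and to 0.096 in male-called cells alone.

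Over the classes given values here, the ETS-factor gene Etv4 was counted mostly in the distal tubule and was higher there at 4 and 12 h. In DCT-like cells it had 9, 11, 91 and 94 UMIs (2.53, 2.97, 19.3 and 24.7 CPM), 7.65-fold the 0 h level at 4 h (log2 2.93 [1.95, 4.11]) and 9.77-fold at 12 h (3.29 [2.30, 4.46]). In CNT-like cells it had 6, 21, 61 and 68 UMIs (4.03, 10, 20.2 and 26.1 CPM), 5.01-fold at 4 h (2.33 [1.12, 3.83]) and 6.47-fold at 12 h (2.69 [1.5, 4.19]). The 1 h ratio was 0.23 [-1.18, 1.68] in DCT-like and 1.31 [-0.05, 2.91] in CNT-like cells, and both intervals include 0. From 4 to 12 h the log2 ratio was 0.35 [-0.08, 0.78] in DCT-like cells and 0.37 [-0.15, 0.89] in CNT-like cells, and both intervals include 0. The ratio of Spry2 from 4 to 12 h was -0.68 [-1.06, -0.30] in DCT-like and -0.56 [-1.11, -0.03] in CNT-like cells.

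In the other classes with at least 50 cells in every library Etv4 was nearly absent from the counts. Smaller classes and unnamed cells were not read. PT-like cells held 3, 1, 2 and 5 UMIs, TAL-like cells 0, 1, 1 and 3, intercalated cells 0, 1, 2 and 1, and endothelial cells 0, 1, 0 and 0. Principal cells, macrophages, neutrophils, B cells and T/NK cells held none in any library. The PT-like counts come from 80553621 to 97889516 UMIs per library.

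Etv5 was higher in DCT-like cells, less clearly so in CNT-like cells and, by less, in the proximal tubule. It stood at 10.1, 15.7, 22.1 and 26.8 CPM in DCT-like cells, with log2 ratios of 0.63 [0.01, 1.27], 1.13 [0.57, 1.72] and 1.41 [0.84, 2]. The CNT-like level was 4.7, 11, 12.3 and 11.5 CPM, with log2 ratios of 1.22 [-0.05, 2.68], 1.38 [0.20, 2.79] and 1.29 [0.07, 2.72]. Only 1 of the 2 CNT-like clusters had enough UMIs, and there the interval of Etv5 included 0 at each time. In PT-like cells it stood at 8.93, 11.2, 11.5 and 14.1 CPM, and the 12 h library was the highest (log2 0.66 [0.53, 0.79]), with a ratio from 4 to 12 h of 0.30 [0.18, 0.42]. The order of the libraries in PT-like cells was therefore different from that of the Sprouty genes, which were highest at 1 or 4 h.

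Etv1 was higher after FGF23 in the early proximal tubule at 1 and 4 h, from a high 0 h level. It was also higher in DCT-like cells, from a low one, and less clearly so in CNT-like cells. In PT-S1-like cells it stood at 91.2, 134, 107 and 93.3 CPM, with log2 ratios of 0.56 [0.48, 0.63], 0.23 [0.15, 0.31] and 0.03, so the 1 h library was the highest and the 12 h library was level with 0 h. In DCT-like cells it had 12, 30, 67 and 64 UMIs (3.37, 8.1, 14.2 and 16.8 CPM), with log2 ratios of 1.26 [0.26, 2.37], 2.08 [1.18, 3.1] and 2.32 [1.42, 3.34]. In CNT-like cells it stood at 8.06, 12.9, 16.2 and 15.3 CPM, with log2 ratios of 0.67, 1.01 [0.08, 2.06] and 0.93 [-0.03, 1.99]; with cells weighted equally the 4 h ratio was 0.10. The distal libraries at 4 and 12 h were close to each other, with a DCT-like log2 ratio from 4 to 12 h of 0.24 [-0.28, 0.76].

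Etv5 has 2 RefSeq windows, and the one within an intron is printed because it holds 3 matches to the capicua motif TGAATGG, the motif of the repressor named in the background. The 250 bases before that start lie on the minus strand at chr16:22438369-22438618 (GRCm38.p6), within the gene (chromosome 16, 22381309 to 22439719). The matches begin 242, 198 and 130 bases before the start, and capitals mark the motif on either strand.
Etv5: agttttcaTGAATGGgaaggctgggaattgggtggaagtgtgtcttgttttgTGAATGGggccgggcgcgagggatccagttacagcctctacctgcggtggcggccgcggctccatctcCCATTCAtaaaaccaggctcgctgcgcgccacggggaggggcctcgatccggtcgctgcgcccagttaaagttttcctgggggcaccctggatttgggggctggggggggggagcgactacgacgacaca
Of the 9 member windows, 1 held this motif. Etv1, Etv4, Spred2 and Il17rd lie, in GENCODE vM21, on chromosome 12 at 38779380 to 38870484 (Etv1, plus strand), chromosome 11 at 101769742 to 101785371 (Etv4, minus strand) and at 19924375 to 20024026 (Spred2, plus strand) and chromosome 14 at 27038941 to 27107286 (Il17rd, plus strand). A match describes the letters and does not show binding.

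DCT-like and CNT-like cells held their class markers in each library. DCT markers summed over 5 genes to 13884, 13817, 12270 and 11626 CPM in DCT-like cells, and CNT markers over 5 genes to 84303, 84261, 105786 and 96152 CPM in CNT-like cells. In DCT-like cells TAL markers stood at 5454, 5386, 5308 and 3935 CPM, and endothelial markers at 5.61, 4.32, 3.61 and 8.66 CPM. In CNT-like cells neutrophil markers stood at 161, 23.8, 34.4 and 38.0 CPM. Each of these classes also held markers of the other. CNT markers stood at 4057, 4035, 3758 and 3247 CPM in DCT-like cells. DCT markers stood at 4330, 4924, 3505 and 3325 CPM in CNT-like cells, and principal cell markers at 3103, 2603, 2448 and 2178 CPM. The part of these levels and shifts in the ratios was not tested.

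As counts, 3 of the 8 members with enough UMIs were at least 2-fold higher in PT-S1-like cells at 1 h, where 0.961% of all genes were, 3 of 8 at 4 h (3.42% of all genes) and 3 of 8 at 12 h (2.74%). Over PT-like cells it was 3 of 8 at 1 h (0.847%), 3 of 8 at 4 h (3.13%) and 1 of 8 at 12 h (2.69%). In DCT-like cells it was 2 of 7 at 1 h (1.49%), 5 of 8 at 4 h (4.29%) and 5 of 8 at 12 h (3.37%). In CNT-like cells it was 3 of 6 at 1 h (2.12%), 5 of 7 at 4 h (2.45%) and 3 of 7 at 12 h (1.85%). In those 4 classes the share of members was above that of all genes at each time, but among 6 to 8 members any 1 call gives that. PT-like cells include the PT-S1-like cells, so the classes are not separate. A member low at 0 h can also pass the UMI minimum through the later library.

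In the last proximal segment the count was above 0 at 1 h only. In PT-S3-like cells 2 of 4 were at least 2-fold higher at 1 h (1.14% of all genes), 0 of 4 at 4 h (2.34%) and 0 of 3 at 12 h (2.2%). In TAL-like cells it was 0 of 5 at 1 h (1.16%), 0 of 5 at 4 h (1.38%) and 0 of 5 at 12 h (1.38%). In endothelial cells it was 0 of 5 at 1 h (1.97%), 0 of 5 at 4 h (2.46%) and 1 of 7 at 12 h (2.36%). That 1 gene was Il17rd, with 3 UMIs at 0 h and 17 at 12 h and an interval that includes 0 (1.43 [-0.36, 3.84]).

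The median log2 ratio of the members with enough UMIs was above 1 in both distal classes at 4 h. It was 0.27, 1.48 and 1.28 in DCT-like cells at 1, 4 and 12 h, beside -0.04, -0.05 and 0.01 over all genes. In CNT-like cells it was 1.07, 1.38 and 0.97, beside 0.02, -0.02 and -0.04. In PT-S1-like cells it was 0.48, 0.44 and 0.28, beside 0.01, 0.08 and 0.07. In TAL-like cells it was -0.08, -0.27 and -0.49. The members with enough UMIs were not the same at each time. In both distal classes Spry1 had enough UMIs at 4 and 12 h, through its later counts, and not at 1 h. It thus entered these medians, and the counts above, only where it was high.

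The proximal ratios were also computed cluster by cluster. A cluster needed at least 20 UMIs over both libraries, so one low at 0 h could enter only where the later library was high. The tallies therefore lean towards higher values. The clusters also share the same libraries and are not replicates. Among 16 proximal clusters with at least 50 cells, Spry1 at 4 h had enough UMIs in 9, was above 0 h in 9 of these and had an interval above 0 in 8. Spry4 at 1 h had enough UMIs in 11, was above 0 h in 11, with log2 ratios from 0.43 to 3.48, and had an interval above 0 in 8. For Spry2 at 1 h it was above 0 h in 11 of 11, with an interval above 0 in 7. At 12 h fewer clusters had an interval above 0, namely 7 of 9 for Spry1, 4 of 7 for Spry4 and 2 of 11 for Spry2. Etv5 at 12 h was above 0 h in 13 of 14 clusters, with an interval above 0 in 5. For the distal tubule, Etv4 was above 0 h with its interval in both CNT-like clusters at 4 and 12 h, and DCT-like cells formed 1 cluster. However, 1 of the 2 CNT-like clusters had no Etv4 UMI at 0 h and so no finite ratio. The log2 ratio in the other was 1.79 at 4 h and 2.19 at 12 h.

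The share of cells with a UMI was also compared for some of these genes. Most shares were larger after FGF23, while that of Etv4 in DCT-like cells at 1 h was near its 0 h value. The lowest shares rest on few cells. To compare cells of different depth, each was thinned to 2000 UMIs and shallower cells were left out. Spry4 was found in 0.21%, 1.63%, 1.98% and 0.65% of thinned PT-S1-like cells at 0, 1, 4 and 12 h, and in 1.19%, 11.1%, 9.02% and 4.31% before thinning. Spry1 in the same cells was found in 0.32%, 2.03%, 2.39% and 1.10%, and Etv1 in 16.5%, 23.8%, 18.4% and 17.6%. Etv4 was found in 0.56%, 0.62%, 5.04% and 4.34% of thinned DCT-like cells (360, 322, 417 and 346 cells) and in 2.14%, 3.32%, 17.5% and 20.9% before thinning. No order was read between 1 and 4 h for Spry4 or between 4 and 12 h for Etv4, where thinned shares and CPM gave opposite orders. In CNT-like cells the thinned share of Etv4 was 1.72%, 2.80%, 4.35% and 4.81%. In T/NK cells Etv4 and Spry4 had no UMI in 183, 165, 161 and 299 thinned cells, which allows shares of up to 1.64%, 1.82%, 1.86% and 1%. T/NK cells held other members, with at least 1 of the 9 genes in 7.65% of thinned cells at 0 h. The limits follow from the number of cells and are not a measured background. They lie above the thinned shares of Spry4 at 0, 1, 4 and 12 h and of Etv4 in DCT-like cells at 0 and 1 h. The same holds for Etv4 in CNT-like cells at 0 h. Those shares cannot be told from background by this class, and no limit was set for Spry1.

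**Figure D3:**
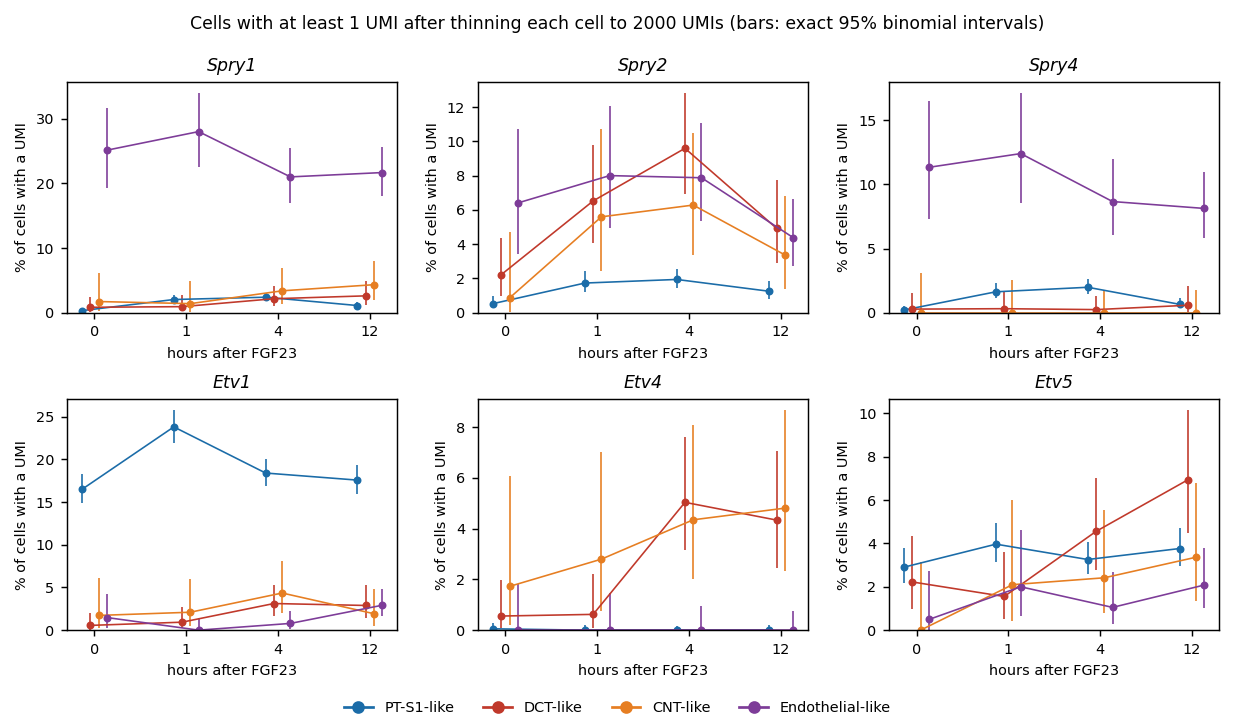
Percent of cells with at least 1 UMI of 6 of the genes after thinning each cell to 2000 UMIs, against hours after FGF23, in PT-S1-like, DCT-like, CNT-like and endothelial cells, 1 library per time. Bars are exact Clopper-Pearson 95% intervals; Etv4 in DCT-like cells goes from 0.56% at 0 h to 5.04% at 4 h.

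Taking the 9 genes together per cell, 26.9%, 36.0%, 32.1% and 29.4% of thinned PT-S1-like cells held a UMI of at least 1 of them at 0, 1, 4 and 12 h. For at least 2 of them it was 2.64%, 5.85%, 5.57% and 3.36%. In DCT-like cells the share with at least 1 was 23.1%, 26.4%, 35.7% and 32.9%, and in CNT-like cells 10.3%, 22.4%, 29.5% and 20.7%. In TAL-like cells it was 15.6%, 16.4%, 13.5% and 9.64%.

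Since kidneys of both sexes were pooled, cells were called male or female from Xist and Y-linked genes, and the ratios were computed in each. Cells without a sex call were left out of the shares that follow. Of the called cells, 69.6%, 60.9%, 49.7% and 48.0% were female in DCT-like cells and 50.4%, 47.8%, 55.4% and 49.5% in PT-S1-like cells. The mix of called cells thus shifted more in DCT-like than in PT-S1-like cells. Spry4 in PT-S1-like cells had log2 ratios of 3.68, 2.89 and 1.93 in female-called and 2.70, 3.13 and 1.76 in male-called cells. Etv4 in DCT-like cells had log2 ratios of 3.35 at 4 h and 3.22 at 12 h in female-called cells, and of 1.89 and 2.85 in male-called cells. Etv4 was thus above 0 h in both sexes at both times. The sexes share the libraries, and the few Etv4 UMIs of DCT-like cells at 0 h are divided between them.

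Etv1 in CNT-like cells gave unlike values in the 2 sexes, a difference that was not tested. Female-called cells held 11, 14, 19 and 14 UMIs, with log2 ratios of -0.04, 0.20 and -0.17, and male-called cells 1, 13, 28 and 21 UMIs. Over the members with enough UMIs in both sexes, the ratios had the same sign in 18 of 24 pairs in PT-S1-like cells, 16 of 19 in DCT-like cells and 8 of 13 in CNT-like cells.

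**Figure D4:**
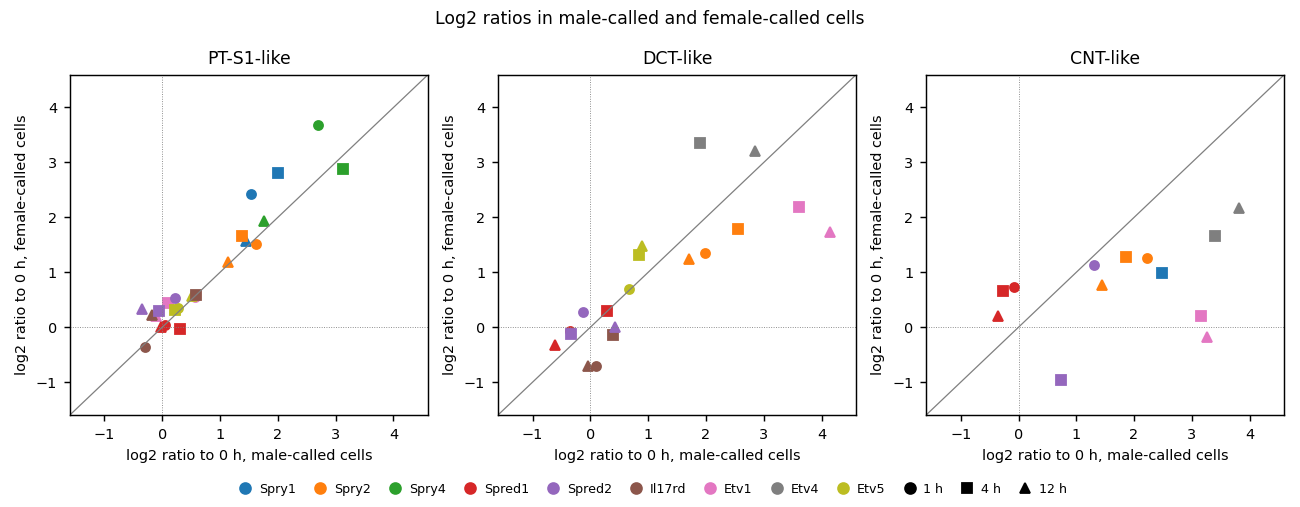
Log2 ratio to 0 h in female-called cells (vertical axis) against that in male-called cells (horizontal axis), for each gene and time with enough UMIs in both, in PT-S1-like, DCT-like and CNT-like cells. Points in the upper right and lower left quadrants have the same sign in both sexes, as 18 of 24 do in PT-S1-like cells; the libraries are shared between the 2 axes.

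The other genes of the pathway were read as fixed lists. In PT-S1-like cells the lists of genes above ERK had median log2 ratios at 1, 4 and 12 h of -0.11, -0.09 and 0.21 for FGF receptors and Klotho (4 of 5 with enough UMIs), 0.09, 0.03 and 0.04 for the 8 adaptors, and 0.08, 0.09 and 0.03 for 10 of 11 genes from RAS to ERK. In the first of these lists Klotho (Kl) lay apart from the receptors, with log2 ratios of -0.18, -0.73 and -0.85. The list of other ERK targets had medians of 2.18, 1.18 and 0.06, and 7, 5 and 1 of its 10 measured genes were at least 2-fold higher, beside 0.961%, 3.42% and 2.74% of all genes in these cells. Regulators of the ETV proteins had medians of 0.03, -0.22 and -0.13. The list of ERK targets was chosen with results of these libraries known, so its direction is not independent evidence.

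Of these, Dusp6, the ERK phosphatase, stood at 33.3, 131, 89.8 and 43.6 CPM in PT-S1-like cells and at 35.9, 97.1, 187 and 81.9 in DCT-like cells. Egr1, an immediate early transcription factor, stood at 6.53, 172, 12.3 and 1.65 CPM in PT-S1-like cells, so at 12 h it was below 0 h while Spry4 was not. In DCT-like cells Egr1 stood at 40.4, 593, 194 and 22.3 CPM. Spred3, the relative of Spred1 and Spred2, stood at 3.65, 3.24, 9.34 and 11.8 CPM in DCT-like cells, with log2 ratios of 1.36 [0.44, 2.37] at 4 h and 1.69 [0.78, 2.71] at 12 h. Klotho (Kl) stood at 767, 747, 567 and 389 CPM in DCT-like and at 246, 217, 148 and 136 CPM in PT-S1-like cells.

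For each member the 3 genes with the most similar pattern were taken from 12770 genes, by Pearson's r of log2(CPM + 1), centred within class, over 24 points (6 classes at 4 times). Etv4 was most like A4galt (r 0.925), Pnp (0.911) and Ptp4a2 (0.899), and Spry4 most like Gpr85 (0.719), AC166995.1 (0.699) and Dusp6 (0.690). Spry1 was most like Sh3tc1 (0.859), Prkab1 (0.852) and Arpc5l (0.844), and Spry2 most like Gripap1 (0.825), Rbpms (0.811) and Arhgef5 (0.803). Etv1 was most like Itgav (0.794), Etv5 most like Eps8l1 (0.858), Spred1 most like Fem1b (0.8), Spred2 most like Tbc1d32 (0.875), and Il17rd most like Zfyve19 (0.863). Among the members, r was 0.67 for Spry1 with Spry4, 0.63 for Etv4 with Spry1 and 0.62 for Etv1 with Etv4, and between -0.38 and -0.02 for Il17rd with the others. The points share libraries and sequencing depth, so these are descriptions.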

How the data were processed

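The deposited matrices hold unnormalised UMI counts for each gene in each barcode, and Cell Ranger 3.1.0 made them per the file headers. The submitters' processing notes also name STAR, Seurat and mm10, and the annotation is not given in the sources used here. Each of the 4 deposited matrices held barcodes already selected by the authors (12245 to 13813), with 139675666 to 158838728 UMIs. Barcodes with fewer than 300 genes or over 50% mitochondrial UMIs were left out, and doublets were called from simulated doublets among 30 neighbours at 0.8% per 1000 cells and removed (7.59% to 8.89% of cells). Cells of all libraries were clustered together (leidenalg 0.10.2, resolution 1.5, 20 neighbours, 30 components, igraph 0.11.9) without the 9 genes, the pathway lists or the sex-linked genes, into 52 clusters. Clusters were named from marker genes, and 3.51% to 4.02% of cells stayed unnamed. These names are rebuilt here and may differ from the study's own.

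UMIs were summed per class and library, with exact Poisson, conditional binomial and Clopper-Pearson 95% intervals (scipy 1.17.1). A class total ranged from 103152 UMIs in neutrophils at 12 h to 97889516 in PT-like cells at 4 h; it was 813767 to 1714132 in endothelial, 1488761 to 3019424 in CNT-like and 3562546 to 4710495 in DCT-like cells. The floor for a count of 0 was 3 UMIs or cells. The interval computation was tested on simulated counts. Gene positions came from GENCODE vM21 (99.9% of 31053 IDs found) and promoter windows from RefSeq. Only Spry1 had exons that overlap a gene on the other strand, Gm42922. The genes named were the 9 members, genes of pathway lists and, per member, the 3 genes of most similar pattern with at least 200 UMIs. The members, markers and lists were chosen with earlier results of these data known. The alternatives were TMM scaling (edgeR 4.0.16), equal cell weights, a 25% mitochondrial limit, doublets kept, each sex alone, thinning to 2000 UMIs, resolution 1, other UMI and fold limits, and segments alone.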

Additional observations from a re-analysis of the deposited data

Results flagged for a closer look

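In 5 comparisons a gene lay above its 0 h level in one class and below it in another, with counting intervals that exclude 0 on both sides. These contrasts were picked as the extremes over classes, each rests on 1 library per time, and the differences were not tested. Spry1 at 4 h had a log2 ratio of 2.70 in PT-like and -0.80 in TAL-like cells, a difference of 3.5. Spry2 at 4 h had 1.82 in DCT-like and -0.58 in TAL-like cells, a difference of 2.41, and at 12 h 1.15 in DCT-like and -2.03 in T/NK cells, a difference of 3.17. Spred2 at 1 h had 0.92 in CNT-like and -1.39 in intercalated cells, a difference of 2.3. Spred1 at 4 h had 0.41 in DCT-like cells and -1.16 in macrophages, a difference of 1.58. In 1 further comparison the sexes had opposite signs: Spred2 in PT-S1-like cells at 12 h had a log2 ratio of 0.33 in female-called and -0.35 in male-called cells, a difference of 0.68.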

How the results depend on the processing

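Each of 4 groups is 1 library, so no value could be checked between animals and no replicate could be left out. No paired analysis was possible because each group has a single sample. Of 39 member ratios at least 2-fold from 0 h, 286 of 287 values under alternatives had the same sign and 269 were still at least 2-fold. The exception in sign was Spry4 in PT-like cells at 4 h, at -0.021 in S3-like cells alone. Alternatives that gave no ratio for a gene are not among the 287 values. Spry2 in DCT-like cells at 12 h had a value in 9 settings, the main one included. Spry1 in DCT-like cells and Etv5 in CNT-like cells at 12 h each had a value in only 5. Of 276 medians, counts and shares under alternatives, 51 differed by more than counting error or by over 1.5 times, and the cause was not tested.

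Values below are at 1, 4 and 12 h unless a time is given. In PT-like cells the median was 0.37 at 1 h with no UMI minimum, 0.49 at 12 h in female-called cells and 0.60 at 4 h after thinning, and 0.95, 0.039 and -0.47 in S3-like cells, where 0 members were at least 2-fold higher at 4 and 12 h. The PT-like count at 12 h was 3 with a 1.5-fold limit, 2 in female-called cells and 3 in S1-like and S2-like cells. In PT-S1-like cells the 12 h median was 0.53 with no minimum and 0.072 after thinning. In DCT-like cells a minimum of 100 UMIs left counts of 1, 3 and 3 and medians of 0.77 at 4 h and 0.71 at 12 h. The DCT-like count at 1 h was 1 with cells weighted equally, and with a 25% mitochondrial limit it was 1 at 1 h and 2 at 12 h, with a median of 0.34 at 12 h. Male-called DCT-like cells gave counts of 1, 3 and 3 and a median of 0.84 at 4 h, and thinning gave counts of 3 at 4 h and 2 at 12 h and a median of 0.59 at 4 h. In CNT-like cells a minimum of 100 UMIs left counts of 0, a 1.5-fold limit gave 5 at 1 h and 5 at 12 h, a 25% mitochondrial limit gave 1, 3 and 1, and doublets kept gave 3 at 4 h. Female-called CNT-like cells gave counts of 2 at 4 h and 1 at 12 h, male-called cells a median of 2.82 at 12 h, and thinning a count of 1 at 1 h and at 4 h and no value at 12 h. Without thinning, the share of PT-S1-like cells with Spry4 was 1.19%, 11.1%, 9.02% and 4.31% at 0, 1, 4 and 12 h, and that of DCT-like cells with Etv4 was 2.14%, 3.32%, 17.5% and 20.9%. With proximal clusters weighted as at 0 h, an alternative chosen after seeing the data, PT-like medians were 0.37, 0.32 and 0.26 with counts of 3, 3 and 1.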
